A study of Mus musculus with 6 samples.

Results

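The 10 genes of the AP-1 transcription factor family, Fos, Fosb, Fosl1, Fosl2, Jun, Junb, Jund, Atf3, Batf and Maff, were compared between chemotherapy-selected MR13 cells and the parental mammary carcinoma line 4T1 from BALB/c mice. The members were taken by gene symbol from the array's annotation, and all 10 were measured by exactly 1 probe set each, among 19933 genes on Affymetrix Mouse Gene 1.0 ST arrays. There were 3 arrays of MR13 cells, which grew out of 4T1 cultures kept for up to 2 weeks, per the labels, in methotrexate (MTX, a folate antagonist) at 13 µg/ml, and 3 arrays of untreated 4T1 cells, named WTR-. The study's text gives a different MTX concentration and a longer exposure, and has the survivors returned to normal medium. MR13 is a single selected line, the labels describe triplicate wells, and whether MTX was present at RNA extraction is not stated, so every p value below measures the spread between wells of the same lines.

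AP-1 is a dimer of basic leucine zipper (bZIP) proteins. FOS proteins cannot pair with themselves and bind DNA with a JUN partner, whereas JUN proteins also form dimers with each other. The dimers recognize the TRE, TGAGTCA, and with ATF partners the related CRE, TGACGTCA. Growth factors, stress and inflammatory signals reach the family through MAP kinases, which induce its genes within minutes and phosphorylate its proteins. In breast cancer cells, FOSL1 in particular is known for its link to the mesenchymal, invasive state.

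Across probe sets, which are not independent replicates, r was 0.984 to 0.987 between an MR13 and a WTR- array and 0.9980 to 0.9987 within a line. The epithelial identity of the line was only partly kept in MR13 cells, in which 5 of 6 epithelial markers were lower, beside 20.6% of all genes. Of these 6 markers, the keratin Krt8, at 13.53 in MR13 and 13.41 in WTR-, was not called. Over the arrays, the mean log2 value of these markers ranged between 9.29 and 9.44 in MR13 and between 12.22 and 12.27 in WTR-. Of 8 myeloid markers, 3 were higher in MR13 (Cd68, Ly6g and Cd14) and 0 lower. This share of 37.5% stands beside 17.0% of all genes called higher and 37.6% called in either direction. The list means were 6.16 to 6.20 in MR13 and 5.90 to 5.96 in WTR-, while the leukocyte antigen Ptprc lay at 5.22 in MR13 and 5.17 in WTR-. Of 8 fibroblast and endothelial markers, Pdgfra and Dcn were higher. Their share of 25.0% stands beside 17.0% of all genes called higher and 37.6% called in either direction. The other 6, among them Pdgfrb, Lum and the endothelial Cdh5 and Pecam1, were not called. The list means were 5.95 to 6.01 in MR13 and 5.44 to 5.54 in WTR-. The 7 lymphocyte markers averaged 4.96 to 5.0 in MR13 and 4.87 to 5.02 in WTR-. The part of these marker values in the AP-1 results was not tested, and in bulk RNA fewer cells of a type cannot be told apart from less RNA per cell.

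AP-1 genes are known to carry AP-1 and CRE-like elements in their own promoters, and promoter sequences were therefore read for all members. RefSeq promoter windows (GRCm38.p6, 250 bases before to 50 after the start) were matched for 9 members, with 11 windows in all, Fosl1 not being matched. The 150 bases upstream of the start are shown 5′ to 3′ on the gene's strand for 3 members that were higher in MR13 (Fos, Jun and Maff) and 2 that were lower (Fosb and Atf3), chosen because they hold matches. Capitals mark matches, on either strand, to the TRE, the CRE or its shorter core, TGACG. They also mark the CRE-related element with the letters TGACATCA, the CCAAT box, and on the gene's strand the TATA box, spelled TATAAA. The core, the CRE-related element and the CCAAT box were added after the sequences were seen, and every CRE also counts as a core.
Fos, chr12:85473740-85473889, plus strand: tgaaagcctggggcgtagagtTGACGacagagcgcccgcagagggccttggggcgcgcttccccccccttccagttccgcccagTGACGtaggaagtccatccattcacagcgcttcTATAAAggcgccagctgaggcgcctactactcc
Jun, chr4:95052223-95052372, minus strand: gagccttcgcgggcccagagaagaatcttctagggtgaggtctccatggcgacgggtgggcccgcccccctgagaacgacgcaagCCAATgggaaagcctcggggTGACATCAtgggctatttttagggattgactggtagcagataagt
Maff, chr15:79347370-79347519, plus strand: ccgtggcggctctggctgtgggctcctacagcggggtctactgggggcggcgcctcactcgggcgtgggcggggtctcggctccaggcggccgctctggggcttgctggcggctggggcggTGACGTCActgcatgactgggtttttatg
Fosb, chr7:19310046-19310195, minus strand: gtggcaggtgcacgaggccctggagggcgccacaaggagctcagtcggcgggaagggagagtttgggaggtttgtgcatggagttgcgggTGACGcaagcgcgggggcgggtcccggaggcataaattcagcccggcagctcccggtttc
Atf3, chr1:191183334-191183483, minus strand: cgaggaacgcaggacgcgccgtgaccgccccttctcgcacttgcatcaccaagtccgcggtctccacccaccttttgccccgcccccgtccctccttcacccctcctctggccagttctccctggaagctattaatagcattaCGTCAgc
In these stretches, Fos held the CRE core from -129 and again from -66, counted back from the start, and TATAAA from -33. Jun held the CRE-related element from -45 and a CCAAT box from -65. Maff held a full CRE from -29, within which the core matches both strands. Another Maff window held the CRE-related element from -45 and the core on the other strand from -122. The remaining Maff window held no match. Among the members that were lower, Fosb held the core from -60 and Atf3 on the other strand from -7. Past the stretch shown, the Atf3 window also held a CCAAT box on the other strand from 6, after the start. None of the 11 windows held TGAGTCA on either strand or a CArG box, the site of serum response factor. The windows reach 250 bases upstream, so sites further from the start were not searched. Of all 32851 windows of this length, 5.20% held TGAGTCA, 1.79% the CRE, 20.8% its core, 3.62% the CRE-related element, 37.4% a CCAAT box, 8.32% TATAAA and 1.63% a CArG box. Of the members not shown, the windows of Junb and Batf, which were not called, held the core from -106 and -98. The Junb window also held a CCAAT box from -36 and TATAAA from 1, at the start. Those of Jund, which was lower, and Fosl2, which was higher, held none of the letters searched. A match describes letters and not a bound site.

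AP-1 genes did not move together in MR13 cells. Of the 10 members, 5 were higher in MR13 (Fos, Fosl1, Fosl2, Jun and Maff), 3 were lower (Fosb, Jund and Atf3), and Junb and Batf were not called at an adjusted p under 0.05 by limma. Calls were frequent on these arrays, with 37.6% of all 19933 genes called, 17.0% higher and 20.6% lower, and 54.8% called when the dimmest 30% of genes were left out. For 8 members the 3 MR13 values did not overlap the 3 WTR- values, against 47.4% of all genes. The members' median log2 difference was 0.16, beside 0.01 over all genes, and their median absolute difference 0.36, beside 0.13. No member differed by 2-fold or more, and 810 of all 19933 genes were called with such a difference. The Fos and Atf3 differences exceeded 1.5-fold, and 2193 of all 19933 genes were called at 1.5-fold or more. No member value was lower than 6.28, above the 30th percentile of every array (5.16 to 5.26).

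The founding member Fos, whose transcript is short-lived and rises within minutes of stimulation, showed the largest difference of the family. Fos (probe set 10397346, chr12:85473890-85477274) had log2 values of 7.32, 7.55 and 7.39 on the MR13 arrays and 6.62, 6.54 and 6.50 on the WTR- arrays. The lowest MR13 array thus lay well above the highest WTR- array. The means of 7.42 ± 0.12 in MR13 and 6.55 ± 0.06 in WTR- (SD, n = 3 each) differed by 0.86 (SE 0.07, 1.82-fold, adjusted p = 1.56e-05).

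Fosl1 encodes FRA1, which lacks the transactivation domain of FOS and is stabilized by ERK signaling. Its values (probe set 10460585, chr19:5447698-5455938) were 11.27, 11.27 and 11.26 in MR13 and 10.79, 10.77 and 10.76 in WTR-. Replicates were nearly identical in both lines, and the gap between the means, 11.26 ± 0.006 in MR13 and 10.77 ± 0.02 in WTR- (SD, n = 3 each), was 27.1 times the larger SD. The log2 difference was 0.49 (SE 0.05, 1.41-fold, adjusted p = 4.68e-05). Fosl2, which encodes the related FRA2, rose as well (probe set 10520862, chr5:32136472-32157840). Its values were 9.77, 9.97 and 9.83 in MR13 and 9.59, 9.42 and 9.56 in WTR-. The groups were apart, but the spread in both lines was wider than for Fosl1, and the difference was 0.33 (SE 0.07, 1.26-fold, adjusted p = 0.00513).

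Fosb was the member of the FOS subfamily that fell. Its product resembles FOS, is likewise induced rapidly and also occurs as a long-lived truncated form, which a single probe set does not separate from the full-length transcript. Fosb (probe set 10560481, chr7:19302696-19310118) had values of 7.18, 7.43 and 7.06 in MR13 and 7.68, 7.77 and 7.82 in WTR-. All MR13 arrays lay below all WTR- arrays, with a wider spread in MR13 (SD 0.19) than in WTR- (SD 0.07, n = 3 each). The log2 difference was -0.53 (SE 0.09, 1.45-fold lower, adjusted p = 0.00145). Set against each other within each array, Fos minus Fosb was 0.14, 0.12 and 0.33 in MR13 and -1.07, -1.22 and -1.32 in WTR-, a change of 1.40. The size of such a difference on 1 array also carries the response of each probe set, and only its change compares the lines. The pair was chosen after the values were seen, and no test is given.

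**Figure D1:**
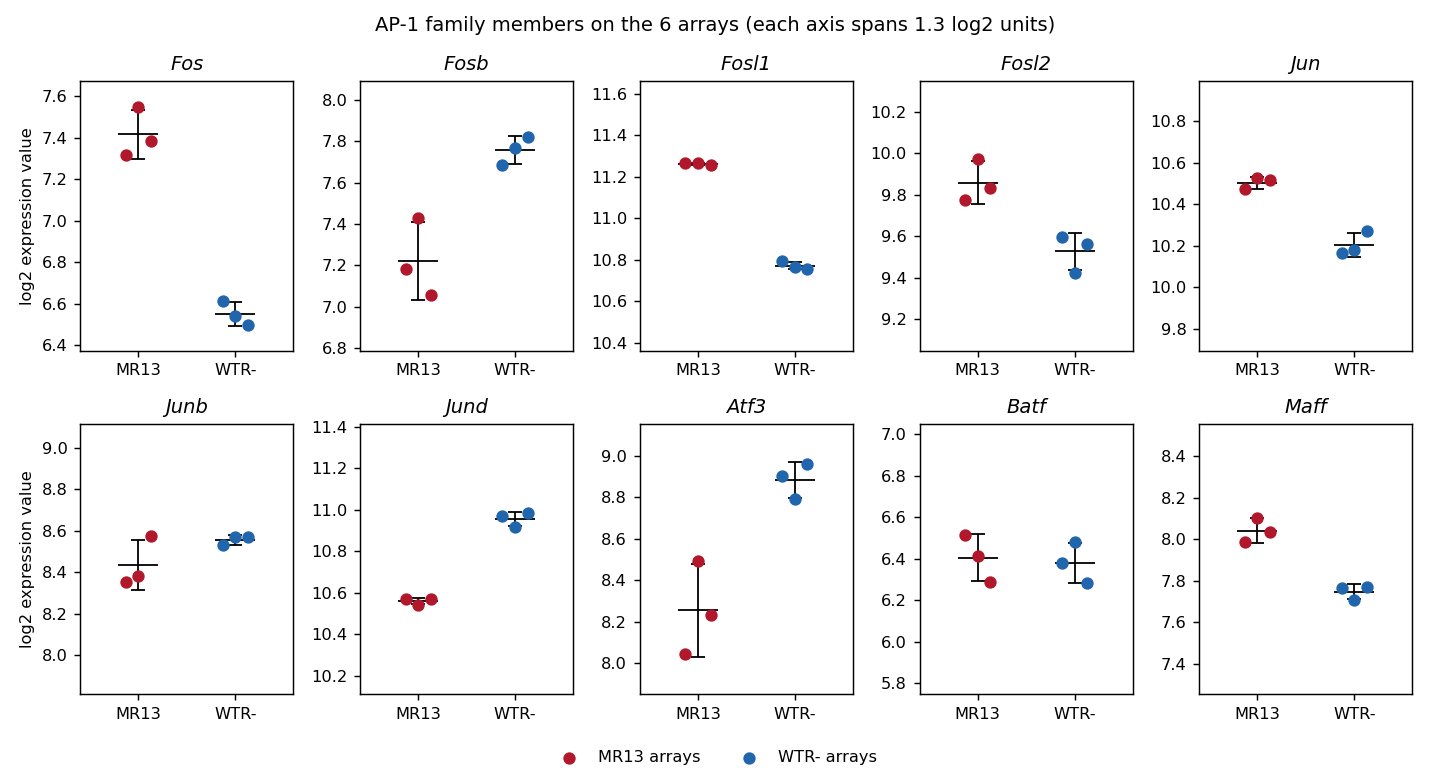
Deposited log2 values (y axis) of the 10 AP-1 family members in MR13 (left of each panel) and WTR- (right); points are arrays, horizontal lines means and bars SDs (n = 3 each), and every y axis spans the same number of log2 units. The groups are apart for 8 members, with Fos at 7.42 in MR13 and 6.55 in WTR-, and overlap for Junb and Batf.

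The JUN subfamily had 1 member higher, 1 lower and 1 not called. Jun, which carries the strongest transactivation domain of the subfamily and is activated by JNK, was higher in MR13. Jun (probe set 10514466, chr4:95049036-95052222) had values of 10.47, 10.52 and 10.52 in MR13 and 10.16, 10.18 and 10.27 in WTR-. Every MR13 array exceeded every WTR- array, and the difference was 0.30 (SE 0.05, 1.23-fold, adjusted p = 0.00187). Jund, which in mouse fibroblasts is known to slow proliferation and whose transcript is expressed constitutively, was lower. Its values (probe set 10572456, chr8:70697739-70700616) were 10.57, 10.54 and 10.57 in MR13 and 10.97, 10.91 and 10.98 in WTR-. The groups did not overlap, and the gap between means was 11.2 times the larger SD (log2 difference -0.40, SE 0.05, 1.32-fold lower, adjusted p = 0.000218).

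Junb, a weaker activator that can oppose JUN, was not called. Junb (probe set 10580282, chr8:84976909-84978748) had values of 8.35, 8.38 and 8.57 in MR13 and 8.53, 8.57 and 8.57 in WTR-. A pair of the MR13 arrays lay below all WTR- arrays, and MR13 replicate 3 lay level with the highest WTR- array. The difference was -0.12 (95% CI -0.27 to 0.03, adjusted p = 0.217). Without MR13 replicate 3 it was -0.19 and passed the threshold (adjusted p = 0.043), and over all 15 alternatives the adjusted p ranged between 0.043 and 0.648. Jun minus Jund within each array was -0.10, -0.02 and -0.05 in MR13 and -0.80, -0.74 and -0.71 in WTR-, a change of 0.69, again chosen after the values were seen. Junb and Jund lie 14.3 Mb apart on chromosome 8.

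Atf3, a stress-induced repressor and activator that pairs with JUN proteins, showed the largest fall of the family. Atf3 (probe set 10361091, chr1:191170296-191183333) had values of 8.05, 8.49 and 8.23 in MR13 and 8.90, 8.79 and 8.96 in WTR-. The MR13 arrays were the most variable of any member (SD 0.22), and yet all lay below the WTR- arrays. Means were 8.26 ± 0.22 in MR13 and 8.88 ± 0.09 in WTR- (SD, n = 3 each), with a log2 difference of -0.63 (SE 0.11, 1.55-fold lower, adjusted p = 0.00128).

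Maff encodes a small MAF protein without a transactivation domain that binds DNA with FOS or with NRF2-type partners. Maff (probe set 10425283, chr15:79346621-79359078) had values of 7.98, 8.10 and 8.04 in MR13 and 7.76, 7.71 and 7.77 in WTR-. The groups were apart (log2 difference 0.29, SE 0.05, 1.23-fold, adjusted p = 0.00223). Batf, best known from lymphocytes, where it pairs with JUN proteins and IRF factors, was the member with the smallest difference. Batf (probe set 10397359, chr12:85686720-85709087) had values of 6.52, 6.41 and 6.29 in MR13 and 6.38, 6.48 and 6.28 in WTR-. The groups overlapped, and the difference of 0.03 had a 95% CI of -0.15 to 0.20 (adjusted p = 0.836). Batf lies 209 kb from Fos on chromosome 12, and Fos was higher in MR13.

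**Figure D2:**
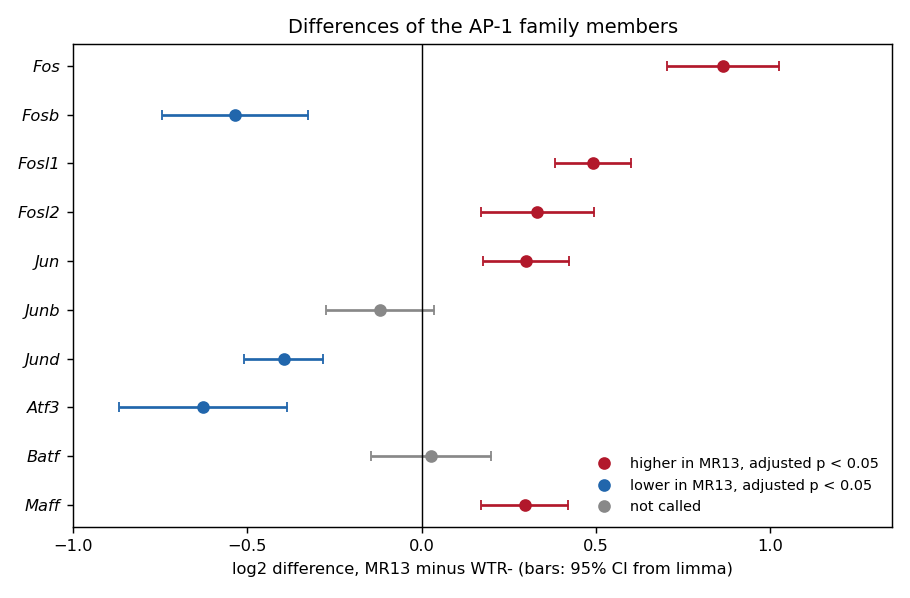
Log2 difference of each AP-1 family member (x axis, MR13 minus WTR-), with 95% confidence intervals from limma; colors separate members called higher, called lower and not called. Differences run between 0.86 for Fos and -0.63 for Atf3, and the intervals of Junb and Batf include 0.

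Other bZIP factors can pair with AP-1 proteins or compete for their sites. Of 31 measured factors of this kind, 12 were higher and 9 lower in MR13, a call rate of 67.7% beside 37.6% of all genes, with a median difference of 0.07. With the dimmest 30% of genes left out, the share over the remaining genes was 54.8%. That share also stands beside the call rates of the lists that follow. Cebpb, a C/EBP factor of the acute-phase and inflammatory response, had values of 10.35, 10.53 and 10.42 in MR13 and 9.13, 9.22 and 9.19 in WTR- (log2 difference 1.25, SE 0.06, adjusted p = 7.71e-07). Cebpd, its relative, rose by 0.56. Nfe2l2, which encodes NRF2, the regulator of antioxidant genes, rose by 0.73 (adjusted p = 4.96e-06). Nfe2l3 (-0.95), the stress factor Ddit3 (-0.78) and the small MAF gene Mafk (-0.63) were the lowest. The small MAF genes were therefore not shifted alike. Maff was higher by 0.29, Mafk was lower, and Mafg, at 9.56 in MR13 and 9.49 in WTR-, was not called (0.07). The JUN partners Atf2 (0.36) and Atf7 (0.36) were higher, while Atf4 was lower (-0.40). Jdp2, a repressor of JUN dimers, was lower (-0.47, adjusted p = 0.000103), as was Crem (-0.53). Mafg, Atf2, Atf4, Atf7, Jdp2 and Crem were chosen after their values were seen.

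Of 31 measured kinases and factors upstream of AP-1, 10 were higher and 10 lower in MR13 (64.5% called, beside 37.6% of all genes, median -0.03). The 10 higher calls depended on single arrays, with 5 higher and 10 lower without MR13 replicate 3, and likewise 5 higher and 10 lower without WTR- replicate 2. Rps6ka3 encodes the ERK-activated kinase RSK2 that phosphorylates FOS. Its values were 10.89, 10.83 and 10.78 in MR13 and 9.94, 9.81 and 9.88 in WTR- (log2 difference 0.96, SE 0.06, adjusted p = 2.72e-06). Rps6ka5, the gene of the chromatin kinase MSK1, rose by 0.76, and Elk4, a partner of serum response factor at the Fos promoter, rose by 0.31. The p38 kinase genes Mapk13 (-0.59) and Mapk12 (-0.57) and the JNK1 gene Mapk8 (-0.38, adjusted p = 0.00125) were lower. Of 13 genes for the turnover and cofactors of JUN and FOS, 5 were higher and 4 lower (69.2% called, beside 37.6% of all genes). Without MR13 replicate 1, MR13 replicate 2 or WTR- replicate 3, 4 were higher and 2 lower in each case. The coactivator Ep300 (0.75), the COP1 adaptor Trib1 (0.51) and the ubiquitin ligase Itch (0.38), whose targets include JUN proteins, were highest. Men1, which encodes menin, a JUND-binding repressor (-0.37), the ubiquitin ligase component Det1 (-0.33) and Cops5 (-0.24), which encodes a JUN-binding subunit of the COP9 signalosome, were lowest.

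AP-1 genes are part of the immediate early response, and 30 other genes of that response were measured. Of these, 10 were higher and 11 lower in MR13 (70.0% called, beside 37.6% of all genes), with a median of 0.01. Their median absolute difference was 0.35, beside 0.36 for the AP-1 members. Egr1, a zinc finger factor induced through the same serum response elements as Fos, had values of 8.96, 9.13 and 8.89 in MR13 and 7.60, 7.85 and 7.74 in WTR- (log2 difference 1.26, SE 0.08, adjusted p = 4.07e-06). Dusp1, a phosphatase that inactivates MAP kinases, had values of 10.60, 10.84 and 10.69 in MR13 and 9.55, 9.41 and 9.50 in WTR- (1.22, SE 0.07). Egr2 (1.11) and Klf10 (1.03), chosen after their values were seen, were also higher. Of their relatives, Egr3 (0.21) and Egr4 (0.02) were not called, and Klf6 (-0.59) and Klf2 (-0.35) were lower. The largest difference was that of Txnip, a glucose-responsive thioredoxin inhibitor rather than a classical early gene (3.33, SE 0.07). Ccn2, a matricellular protein also induced by TGF-β and YAP, showed the largest fall, with values of 8.86, 8.82 and 8.75 in MR13 and 11.89, 11.91 and 11.98 in WTR- (-3.12, SE 0.06). Gadd45b, a stress sensor acting on MAP kinase kinase kinases, fell by 1.82, and Myc fell by 0.84. Early genes, like the AP-1 members, were thus called in both directions.

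**Figure D3:**
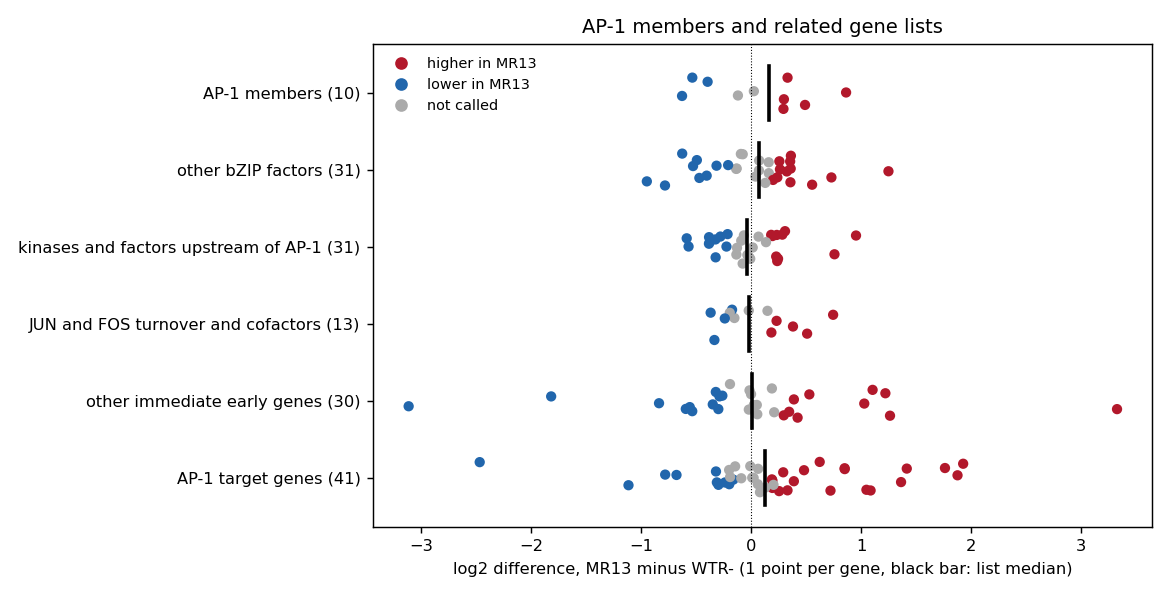
Log2 differences (x axis, MR13 minus WTR-) of the AP-1 members and 5 related gene lists (y axis, number measured in brackets); points are genes, their colors show higher, lower or no call, and vertical black lines mark list medians. Every list holds genes called in both directions, and the medians lie between -0.03 and 0.16.

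Genes described elsewhere as AP-1 targets included secreted, adhesive and cell cycle genes. Of 41 measured, 19 were higher and 10 lower in MR13 (70.7% called, beside 37.6% of all genes), with a median of 0.13. Egfr, the EGF receptor, had values of 8.70, 8.95 and 8.66 in MR13 and 6.98, 6.74 and 6.95 in WTR- (1.88, SE 0.09, adjusted p = 7.75e-07). The chemokine gene Ccl2 was higher by 1.93 and Il6 by 1.76, although the WTR- mean of Il6 (3.67) lay under the 10th percentile of every array (3.76 to 3.80), where background is part of the value. The lymphangiogenic factor Vegfc (1.42), the fibronectin receptor chain Itga5 (1.05) and the stromelysin Mmp3 (1.09) were also higher, and were chosen after their values were seen. Plau (-0.68) and Ptgs2 (-0.32), chosen likewise, were lower. Krt14, a basal keratin, was lower by the most (-2.47). Hbegf, an EGF receptor ligand, had values of 9.57, 9.68 and 9.63 in MR13 and 10.76, 10.75 and 10.72 in WTR- (-1.12, SE 0.05), and the cytokine gene Lif was lower by 0.78 (log2 difference -0.78). Target genes of AP-1 answer to other factors too, and their differences were not tied here to any member.

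**Figure D4:**
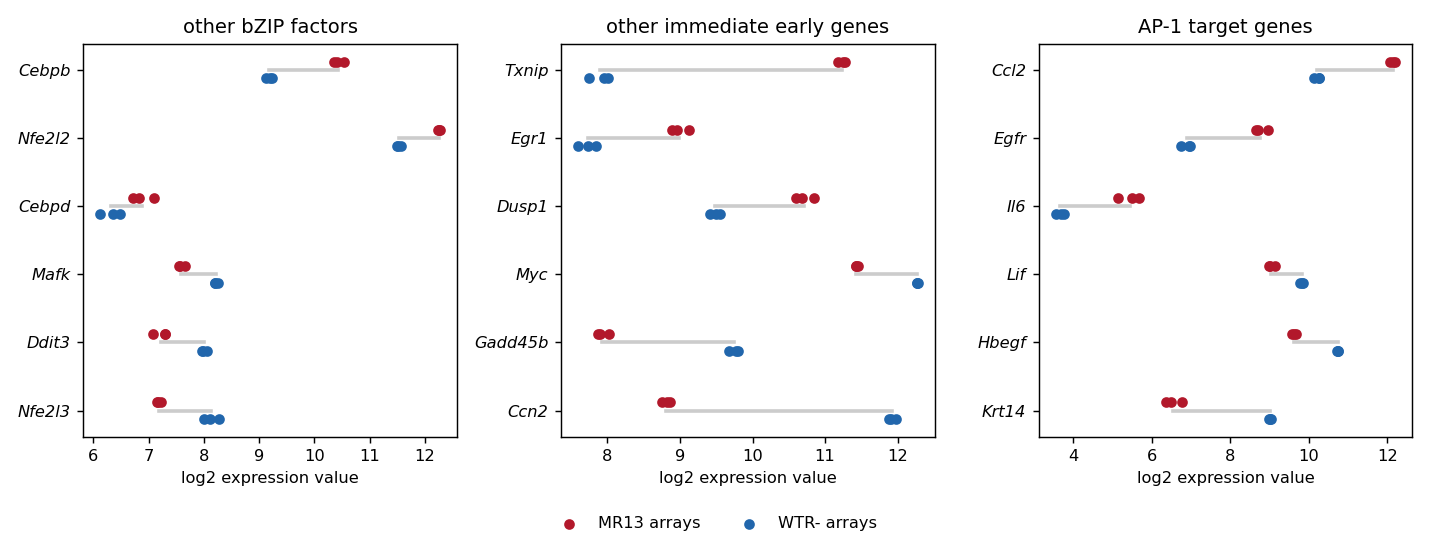
Deposited log2 values (x axis) of the genes with the largest called differences in each direction in 3 lists; points are arrays (MR13 upper, WTR- lower) and gray lines join group means. Only genes whose groups did not overlap were drawn, so the lack of overlap was set by the selection. Ccn2 lies at 8.81 in MR13 and 11.93 in WTR-.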

How the data were processed

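Total RNA was labeled with biotin and hybridized to 6 arrays, 3 per group. The deposited values were log2 expression, 1 per probe set, which the authors had normalized across arrays. Per the submitters' processing notes, affy and limma were used. Their versions, the background correction and the summarization are not given in the sources used here. Values of 2.42 to 14.4, with array medians of 6.57 to 6.62, fit a log2 scale. Of 28350 probe sets, 21780 had 1 gene symbol in the platform annotation, 1618 had several and 4952 were unnamed here. Each gene was represented by its probe set with the highest mean, leaving 19933 genes. Genes without a probe set of their own symbol were not analysed here. Names and gene coordinates came from RefSeq, GRCm38.p6.

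The 2 lines were compared with limma 3.58.1 in R 4.3.3, two-sided and without covariates, with Benjamini-Hochberg adjustment across the 19933 genes. Calls required an adjusted p below 0.05. Differences are MR13 minus WTR- with the SE from limma, and values are mean ± SD. The members and gene lists were chosen with earlier results of these data known. From each list the text names up to 3 genes called higher and 3 called lower with the largest differences among genes whose groups did not overlap, and other genes as stated. The code was tested on simulated data. Alternatives were another normalization, centering, a filter on dim genes, probe set means, a trended prior and a replicate block. Further ones were leaving out each array, all probe sets, a 1.5-fold minimum and the t-test of the paper's general statistics. No detection calls were used, and the number of arrays limits the precision.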

Additional observations from a re-analysis of the deposited data

How the results depend on the processing

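The same 5 AP-1 members were called higher and the same 3 lower in 14 of 15 alternatives, the exception being the 1.5-fold minimum, which left Fos (higher) and Atf3 (lower), 1 each. By construction of the threshold, that minimum left fewer calls, with 2193 of all 19933 genes. It left 5 of the 31 other bZIP factors, 3 of the 31 upstream kinases and factors and 1 of the 13 turnover and cofactor genes. Among the early genes it left 9 of 30, and among the AP-1 targets 15 of 41. No member changed direction among the called ones. Each member has 1 probe set, so probe set means and all probe sets left its log2 values unchanged. Those alternatives could move only its SE and adjusted p. The dim filter removed no member. The Fos difference ranged between 0.80 and 0.92, Fosl1 between 0.48 and 0.50, Jund between -0.42 and -0.38 and Atf3 between -0.75 and -0.52. Junb alone gained a call, without MR13 replicate 3. Leaving out 1 array gave between 6716 and 6971 called genes. The unpaired t-test of the paper's general statistics, not tied there to these arrays, gave 8140 genes at an unadjusted p under 0.05. After Benjamini-Hochberg adjustment it gave 6524, with 8 members at either threshold. Among the 8 called members its adjusted p was the highest for Fosl2 (0.0423). Same-numbered arrays deviated together at r = 0.075, 0.0 and 0.19, and other-numbered arrays at r = -0.215 to 0.109. The numbers were not taken as pairs in the main comparison. With the replicate block 7442 genes were called, with the same 8 members.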

Other observations

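Within the MR13 group, replicate 2 was the highest of the 3 arrays for 7 of the 10 AP-1 members, namely Fos, Fosb, Fosl1, Fosl2, Jun, Atf3 and Maff. For Fosl1 (11.2665, with 11.2662 in replicate 1) and Jun (10.5248, with 10.5151 in replicate 3) the arrays were nearly level. MR13 replicate 2 was also the highest for 44.6% of all genes, for 13 of 30 other early genes and for 22 of 41 AP-1 targets. MR13 replicate 2 thus widened the gap to WTR- for Fos and narrowed it for Fosb and Atf3. Without it, the Fosb difference was -0.64 and the Atf3 difference -0.75, against -0.53 and -0.63 with all arrays. This pattern was noticed in the data and was not tested.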
